A study of Mus musculus with 9 samples.

Results

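The messages of 9 enzymes that write, copy or remove DNA methylation were followed in sorted mouse BV+ and BV- cells with and without NRF1 overexpression (NRF1 OE). The 9 genes were Dnmt1, Uhrf1, Dnmt3a, Dnmt3b, Dnmt3l, Tet1, Tet2, Tet3 and Tdg. They were chosen by symbol, and each symbol matched 1 of the 56691 genes listed. All 9 passed the filter on low counts, which kept 16903 genes.

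The cells came from BVSC pluripotent stem cells (PSCs), a mouse line with 2 fluorescent reporters, Blimp1-mVenus (BV) and Stella-CFP. PSCs were grown into embryoid bodies, every group received 1.5 μg/mL doxycycline between day 2 and day 5, and cells were sorted by the BV signal into BV+ cells, labelled as primordial germ cell-like cells (PGCLCs), and BV- cells, labelled as somatic. NRF1 OE cells carried a modified doxycycline-inducible pInducer20 (p20) vector with mouse Nrf1 cDNA, and Ctrl cells carried the vector without it. RNA-seq was available for 2 BV+ NRF1 OE, 2 BV+ Ctrl, 3 BV- NRF1 OE and 2 BV- Ctrl libraries. All groups derive from 1 cell line, the BV- cells are whatever the embryoid body held outside the BV gate. The study's methods call its RNA-seq replicates biological, but neither they nor the labels say whether libraries came from separate cultures, so the p-values measure the spread between these libraries, which may be technical.

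The libraries held 13702162 to 19625460 counts, with 22921 to 25896 genes detected. The labels were checked first. Nrf1 itself was at 95.7 and 99.4 CPM (counts scaled to library size) in BV+ NRF1 OE against 91.1 and 90.4 in BV+ Ctrl, and at 119, 122 and 126 CPM in BV- NRF1 OE against 99.1 and 105.2 in BV- Ctrl. Reads of the transgene and of the cell's own gene fall on the same row. NRF1 OE libraries were higher in both populations, but neither difference passed the test (log2 difference 0.10, adjusted p = 0.489 in BV+, and 0.26, adjusted p = 0.0718 in BV-, edgeR). Germ cell markers did not separate the sorted populations as their labels would have it. Prdm1, which encodes Blimp1, was at 53.3 to 62.8 CPM in BV+ and 42.4 to 62.0 CPM in BV- libraries, and the sum of 9 germ cell markers was 528 to 586 CPM in BV+ and 557 to 734 CPM in BV-. In BV+ cells with NRF1 OE, Dppa3, Nanos3 and Tfap2c were lower and Itgb3 higher than in BV- cells. BV+ and BV- therefore stand here for the sort gate, not for a checked cell type.

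DNA methylation is laid down on new sites by DNMT3A and DNMT3B, which DNMT3L assists without being an enzyme itself, and is copied after each replication by DNMT1, which UHRF1 brings to hemimethylated DNA. TET1, TET2 and TET3 oxidise 5-methylcytosine, and TDG cuts out the more oxidised bases so that repair can restore cytosine. Primordial germ cells are known for losing most of their DNA methylation, in large part because its copying fails, with TET enzymes acting on some sites.

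Per transcript length, Uhrf1, Dnmt3l, Dnmt1 and Dnmt3b were the most abundant of the 9. Averaged over the 9 libraries, Uhrf1 was at 162 FPKM (a level scaled to gene length and library size, as the authors calculated it), Dnmt3l at 109, Dnmt1 at 67.1 and Dnmt3b at 58.8 FPKM. These 4 levels lay above those of 94.6% to 98.5% of the genes tested. Tet1 followed at 29.99 FPKM and Dnmt3a at 12.01 FPKM, while Tdg at 3.85, Tet3 at 2.44 and Tet2 at 1.87 FPKM were close to the middle or in the lower part of the range. The ranges over libraries did not overlap between Tet1, at 12.2 to 47.9 FPKM, and Dnmt3b, at 50.9 to 81.6 FPKM, whereas those of Tdg, at 2.27 to 7.76 FPKM, and Tet3, at 1.70 to 3.54 FPKM, did. Tet2 spanned 4.93-fold in CPM between its lowest and highest library, Tet1 3.87-fold and Tdg 3.39-fold, against 1.22-fold for Dnmt1 and 1.32-fold for Uhrf1. Raw counts ran from 141 to 909 for Tet2 and 196 to 818 for Tdg. They were at least 2349 in every library for Dnmt1, Uhrf1, Dnmt3a, Dnmt3b, Dnmt3l and Tet1. Precision also followed the spread between libraries: for NRF1 OE in BV+ cells the SE of the log2 difference was 0.32 for Tet1 and 0.17 for Tdg.

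**Figure D1:**
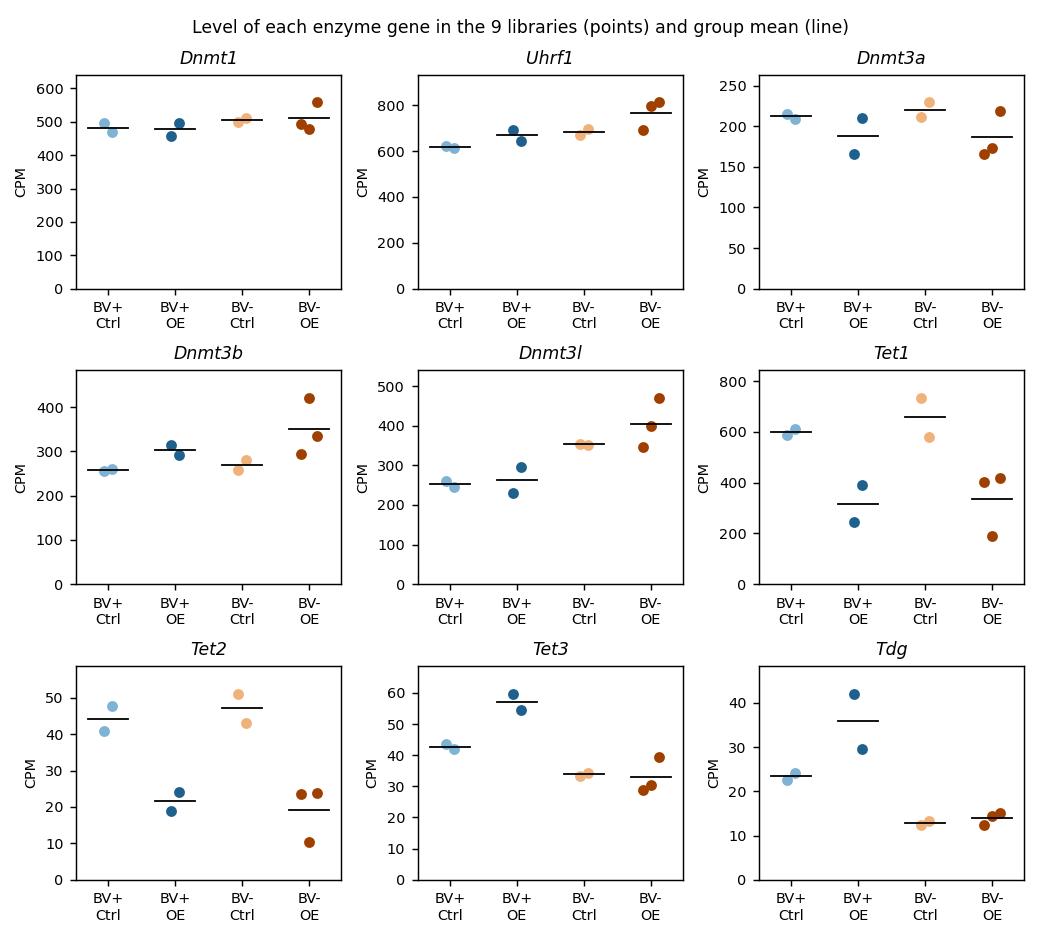
Level of each enzyme gene in CPM (y axis, from 0) by group (x axis); points are libraries and lines group means. Tet1 and Tet2 are lower in all 5 NRF1 OE libraries than in all 4 Ctrl libraries, and Tet3 and Tdg are higher in all 4 BV+ than in all 5 BV- libraries.

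The first question was whether NRF1 OE changed these messages in BV+ cells. In the test across all genes (edgeR quasi-likelihood, Benjamini-Hochberg), none of the 9 passed an adjusted p of 0.05, where 8.02% of all genes did. At an unadjusted p below 0.05 there were 4, against 32.5% of all genes: Tet1 and Tet2 lower and Tet3 and Tdg higher, and DESeq2 called 2, Tet2 and Tdg. The study's threshold (unadjusted p below 0.05 and an absolute log2 difference above 0.58) took in 3, Tet1, Tet2 and Tdg, where it took in 17% of all genes. NRF1 OE and Ctrl libraries did not overlap for 6 of the 9, which says little since 70.1% of all genes did the same with 2 libraries against 2.

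Dnmt1, the maintenance methyltransferase, was at 459 and 496 CPM in BV+ NRF1 OE and 496 and 468 CPM in BV+ Ctrl. The groups overlapped, and the log2 difference of -0.01 had a 95% interval of -0.25 to 0.22. Uhrf1 was at 694 and 644 CPM against 622 and 615 CPM, a log2 difference of 0.11 (95% interval -0.12 to 0.35, adjusted p = 0.461). Both NRF1 OE values of Uhrf1 lay above both Ctrl values.

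Among the de novo genes, Dnmt3b had the largest difference in BV+ cells. It was at 315 and 291 CPM with NRF1 OE and 255 and 260 CPM in Ctrl, without overlap (log2 difference 0.23, 95% interval -0.09 to 0.56, adjusted p = 0.278). Dnmt3a was at 166 and 210 CPM against 216 and 208 CPM, and Dnmt3l at 231 and 295 CPM against 261 and 245 CPM. Both of these overlapped, with log2 differences of -0.18 (95% interval -0.51 to 0.16) and 0.06 (95% interval -0.28 to 0.39).

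Tet1, the most abundant of the 3 oxidising enzymes, was at 244 and 389 CPM in BV+ NRF1 OE against 586 and 613 CPM in BV+ Ctrl. Its log2 difference was -0.92 (SE 0.32, 95% interval -1.61 to -0.23, adjusted p = 0.0827, edgeR). Tet2 was at 19.0 and 24.1 CPM against 40.8 and 47.7 CPM, a log2 difference of -1.04 (SE 0.30, 95% interval -1.69 to -0.39, adjusted p = 0.0542). For both genes the NRF1 OE libraries were the low ones and replicate 1 was the lower of the pair. Without BV+ NRF1 OE replicate 1 the log2 differences were -0.62 for Tet1 and -0.88 for Tet2.

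Tet3 went the other way, at 59.8 and 54.5 CPM with NRF1 OE against 43.6 and 42.0 CPM in Ctrl. Both NRF1 OE values were above both Ctrl values, and the log2 difference of 0.42 (SE 0.15, 95% interval 0.09 to 0.75) had an adjusted p of 0.0929 (edgeR). Tdg, at 42.1 and 29.5 CPM against 22.5 and 24.2 CPM, had a log2 difference of 0.62 (SE 0.17, 95% interval 0.24 to 1.00, adjusted p = 0.0517), and its counts carry a limit described further on. In these same BV+ libraries the sum of 5 neuroectoderm markers was 112 to 165 CPM with NRF1 OE and 65.5 to 72.4 CPM in Ctrl, and that of 7 mesoderm markers 26.8 to 37.0 CPM and 15.1 to 18.0 CPM. Of each list 4 markers were tested and 1 was called higher, where 8.02% of all genes were called. The sum of 6 endoderm markers was lower with NRF1 OE, at 13.7 to 16.7 CPM against 18.5 to 19.5 CPM. That of 6 formative and primed epiblast markers was 258 to 273 CPM against 276 to 278 CPM. In both groups 4 of the 7 mesoderm markers and 1 of the 5 neuroectoderm markers stayed below 1 CPM in every library. The part of any of these cell types in the Tet3 and Tdg levels was not tested. In bulk RNA more cells of a type and more RNA per cell cannot be told apart.

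The same question in BV- cells gave 2 calls among the 9, both lower, where 17.2% of all genes were called and 6.98% were called lower. The calls were Tet1 and Tet2. DESeq2 also called 2, and at an unadjusted p below 0.05 there were 3 (39.1% of all genes), with Dnmt3b as the other. NRF1 OE and Ctrl libraries did not overlap for these 3, as for 57% of all genes.

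In BV- cells Tet1 was at 403, 190 and 420 CPM with NRF1 OE and at 734 and 581 CPM in Ctrl. It fell to 0.513 times the Ctrl level (log2 difference -0.96, SE 0.28, 95% interval -1.58 to -0.34, adjusted p = 0.0429, edgeR). All 3 NRF1 OE libraries were below both Ctrl libraries, and replicate 2 was lowest by a wide margin. Tet2 was at 23.5, 10.4 and 23.8 CPM with NRF1 OE against 51.2 and 43.2 CPM, and fell to 0.411 times the Ctrl level (log2 difference -1.28, SE 0.27, 95% interval -1.87 to -0.70, adjusted p = 0.0317). Replicate 2 was again the low library. Without it the differences were smaller but passed the test, at -0.71 for Tet1 (adjusted p = 0.0109) and -1.02 for Tet2 (adjusted p = 0.00382). The calls themselves were close to the threshold: both were lost in an edgeR fit of the 2 groups alone (adjusted p = 0.0814 for Tet1 and 0.0806 for Tet2), and leaving out BV- NRF1 OE replicate 3 or any 1 of the 4 Ctrl libraries left 0 members called.

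The de novo gene Dnmt3b was at 295, 421 and 334 CPM in BV- NRF1 OE against 257 and 281 CPM in BV- Ctrl. All NRF1 OE values were higher, but the log2 difference of 0.38 (SE 0.14, 95% interval 0.08 to 0.67, adjusted p = 0.07, edgeR) missed the threshold, and it was 0.19 without BV- NRF1 OE replicate 2. The 6 other members overlapped between NRF1 OE and Ctrl, with log2 differences of 0.02 for Dnmt1, 0.17 for Uhrf1, -0.24 for Dnmt3a, 0.20 for Dnmt3l, -0.04 for Tet3 and 0.12 for Tdg. Their 95% intervals lay between -0.55, the lower end for Dnmt3a, and 0.50, the upper end for Dnmt3l.

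Averaged over both populations with equal weight, which puts 5 NRF1 OE against 4 Ctrl libraries, 4 of the 9 were called, where 41.7% of all genes were (23.1% higher and 18.6% lower). The members' share was thus near that of all genes. Tet1 (log2 difference -0.94, SE 0.21, adjusted p = 0.00815, edgeR) and Tet2 (-1.16, SE 0.20, adjusted p = 0.00513) fell, and Dnmt3b (0.31, SE 0.10, adjusted p = 0.0316) and Tdg (0.37, SE 0.12, adjusted p = 0.0327) rose. All 5 NRF1 OE libraries lay below all 4 Ctrl libraries for Tet1 and Tet2 and above them for Dnmt3b, and 29.7% of all genes separated in the same way. The fall of Tet1 and of Tet2 kept its sign and its call in each of 20 alternatives run, among them leaving out each of the 9 libraries. The joint count of Tdg with its copy is also among these 20 and leaves the Tet1 and Tet2 counts as they were. The rise of Dnmt3b held in 11 of 20 alternatives and was 0.13 (adjusted p = 0.183) with offsets for GC content and length. The rise of Tdg also held in 11 of 20 alternatives, in 3 of the 9 that leave out a library, its NRF1 OE and Ctrl libraries overlapped, and it was 0.11 (adjusted p = 0.265) when Tdg was counted with its copy.

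Markers of naive pluripotency moved beside Tet1 and Tet2. Averaged over both populations, 4 of the 7 were called lower (Klf4 by 0.65, Zfp42 by 0.60, Tbx3 by 0.55 and Tfcp2l1 by 0.41 on the log2 scale). A further 2 were called higher, Klf2 by 0.25 and Esrrb by 0.21. Of all genes, 18.6% were called lower and 23.1% higher. The median of the 7 was -0.41 against 0.03 over all tested genes. The 7 were not followed under the alternatives. With NRF1 OE, Zfp42 was at 197 and 268 CPM in BV+ and 308, 216 and 270 CPM in BV- cells, below its Ctrl values of 374 and 367 CPM in BV+ and 397 and 367 CPM in BV-. The sum of the 7 was 1120 to 1303 CPM in BV+ NRF1 OE against 1391 to 1431 CPM in BV+ Ctrl, and 1427 to 1487 CPM in BV- NRF1 OE against 1440 to 1449 CPM in BV- Ctrl. None of the 7 was at 0 in any library, and their part in the Tet1 and Tet2 levels was not tested.

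GC content moved with these results. Tet1 and Tet2 have transcripts of 43.7% and 45.4% GC against a median of 49.8% over tested genes, and Dnmt3b has 53.1%. The rank correlation across 16662 genes of transcript GC with how far a library departed from the average was -0.505 to -0.398 in the 4 Ctrl libraries and 0.0237 to 0.621 in the 5 NRF1 OE libraries, the highest being BV- NRF1 OE replicate 2. With offsets for GC content and length, averaged over both populations, Tet1 still fell by 0.47 (adjusted p = 0.00805) and Tet2 by 0.81 (adjusted p = 0.00241) on the log2 scale. Within BV- cells the same offsets gave -0.37 for Tet1, which was then no longer called (adjusted p = 0.12), and -0.85 for Tet2 (adjusted p = 0.0302). Within BV+ cells they gave -0.57 for Tet1 (adjusted p = 0.0358) and -0.77 for Tet2 (adjusted p = 0.0181), both then called.

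**Figure D2:**
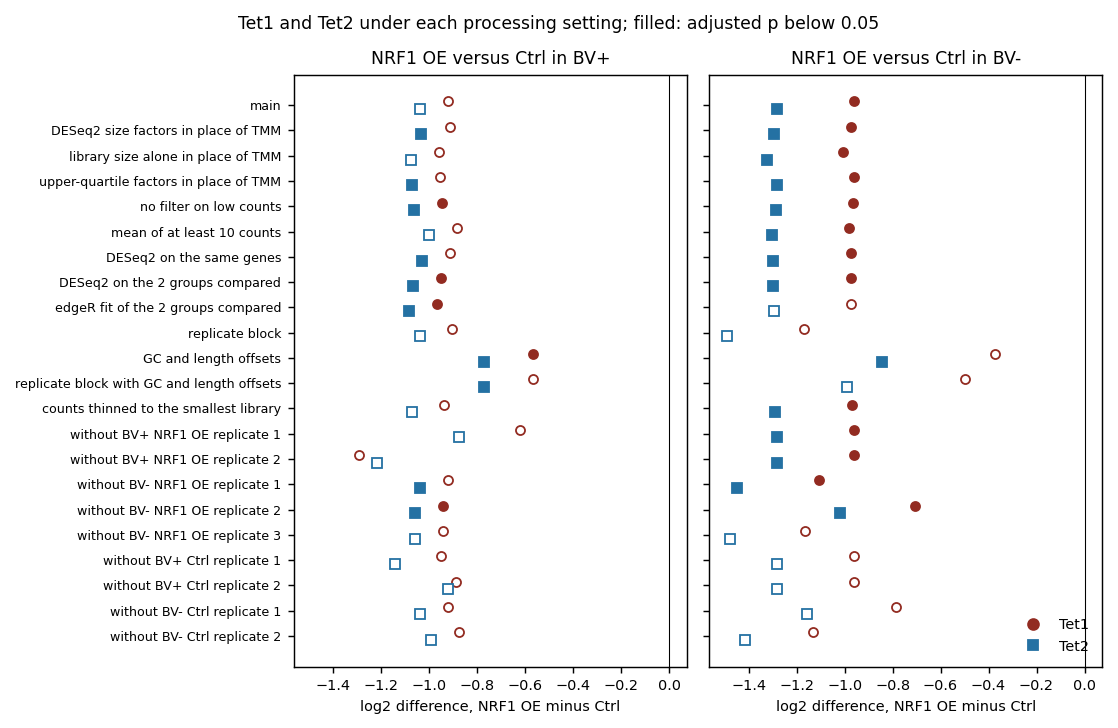
The log2 difference of Tet1 (circles) and Tet2 (squares) between NRF1 OE and Ctrl (x axis) in BV+ (left) and BV- cells (right) under each processing setting (rows); filled symbols have an adjusted p below 0.05. Every value lies below 0, from -1.49 to -0.37, while the call at 0.05 comes and goes with the setting.

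Whether the response differed between the populations was tested as an interaction. None of the 9 and 0% of all 16903 genes passed the adjusted test in edgeR, and DESeq2 called none of the 9. Tet3 alone had an unadjusted p below 0.05 (5.51% of all genes), with a response in BV+ cells greater by 0.46 on the log2 scale (95% interval 0.01 to 0.91, adjusted p = 0.896, edgeR). For Tet1 and Tet2 the response differed by 0.04 (95% interval -0.89 to 0.97) and 0.24 (95% interval -0.64 to 1.12).

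NRF1 is a transcription factor whose known site is GCGCANGCGC, and the letters around the starts of the members were read for it. RefSeq (GRCm38.p6) gave 16 promoters for the 9 members, each 250 bases before to 50 after a start. The files' own build is GRCm39, so these positions belong to GRCm38.p6 only. GCGCANGCGC, read on both strands, was found in 4.60% of all 32851 promoters and in 2 of the 16, both of Dnmt1. The 5-letter part GCGCA, also read on both strands and contained in the longer motif, was found in the 250 upstream bases of 25.6% of all promoters and of 3 of the 16, at Dnmt1, Tet1 and Tet2. Both longer motifs at Dnmt1 lie within the 50 bases after a start, apart from its upstream matches. The 2 Dnmt1 windows are on the minus strand at chr9:20952590-20952619 and chr9:20952931-20952960. They are shown with the longer motif in capitals because they are the only members' promoters that hold it.
Dnmt1 window 1: cagccagggcGCGCATGCGCggggcagcgt
Dnmt1 window 2: cctccgttgcGCGCATGCGCactcccttcg

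The upstream 250 bases of Tet1, at chr10:62887325-62887574, and of Tet2, at chr3:133544391-133544640, both on the minus strand, are shown because these were the members that fell with NRF1 OE. Capitals mark the 5-letter part, found 1 time at Tet1 and 3 times at Tet2, and 94.4% of all promoters hold fewer matches than that of Tet2. The 3 matches at Tet2 lie in copies of the same repeated stretch, so they are not independent sites and the rank counts the repeat.
Tet1: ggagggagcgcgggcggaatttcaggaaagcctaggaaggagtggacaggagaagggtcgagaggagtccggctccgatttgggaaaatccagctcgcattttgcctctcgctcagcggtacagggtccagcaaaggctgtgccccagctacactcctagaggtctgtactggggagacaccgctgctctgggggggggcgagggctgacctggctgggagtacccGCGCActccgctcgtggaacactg
Tet2: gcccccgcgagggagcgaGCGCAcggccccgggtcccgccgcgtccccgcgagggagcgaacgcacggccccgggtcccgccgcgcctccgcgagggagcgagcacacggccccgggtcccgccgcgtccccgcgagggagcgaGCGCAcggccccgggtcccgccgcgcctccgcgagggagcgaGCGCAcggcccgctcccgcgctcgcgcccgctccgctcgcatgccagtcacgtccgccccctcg
The matches are letters, not measured binding. Dnmt1, the gene with the longer motif, had a log2 difference between NRF1 OE and Ctrl of -0.01 in BV+ and 0.02 in BV- cells. Whether NRF1 acts at any of these promoters was not tested. The study's own NRF1 ChIP-seq of BV+ cells was not used here.

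The sorted populations were compared next, first with the empty vector and then with NRF1 OE. These comparisons use the same libraries as the ones above. At Ctrl, none of the 9 passed the adjusted test in edgeR, where 1.12% of all genes did, while 3 had an unadjusted p below 0.05 (7.77% of all genes), 1 passed the study's threshold (5.74% of all genes) and DESeq2 called 1, Tdg. With NRF1 OE, 3 of the 9 were called, where 13.8% of all genes were: Tdg and Tet3 were higher in BV+ cells (9.9% of all genes) and Dnmt3l lower (3.85% of all genes). BV+ and BV- libraries did not overlap for 5 of the 9 at Ctrl and 4 with NRF1 OE, against 48% and 39.9% of all genes.

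Tet3, at 43.6 and 42.0 CPM in BV+ Ctrl and 33.3 and 34.3 CPM in BV- Ctrl, had a log2 difference of 0.34 (95% interval 0.00 to 0.67, adjusted p = 0.633, edgeR). With NRF1 OE it was at 59.8 and 54.5 CPM in BV+ and 28.9, 30.4 and 39.3 CPM in BV- cells, and was higher in BV+ by 0.80 on the log2 scale (SE 0.14, 95% interval 0.50 to 1.10, adjusted p = 0.00266). Every BV+ library was above every BV- library under both vectors. This call held in each of 22 alternatives, at 0.55 to 0.96, the lowest value being that with GC and length offsets.

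Dnmt3l, the cofactor of the de novo enzymes, was at 261 and 245 CPM in BV+ Ctrl against 354 and 352 CPM in BV- Ctrl (log2 difference -0.48, 95% interval -0.81 to -0.15, adjusted p = 0.269, edgeR). With NRF1 OE it was at 231 and 295 CPM in BV+ against 345, 400 and 470 CPM in BV- cells, lower by 0.62 on the log2 scale in BV+ (SE 0.14, 95% interval -0.93 to -0.32, adjusted p = 0.0127). Every BV+ library was below every BV- library. The call at NRF1 OE held in 17 of 22 alternatives. It was lost without BV+ NRF1 OE replicate 1 (-0.46, adjusted p = 0.156) or BV- NRF1 OE replicate 3 (-0.49, adjusted p = 0.0648), in an edgeR fit of the 2 groups alone (-0.59, adjusted p = 0.0605), and with a replicate block (-0.51, adjusted p = 0.0739) or that block with GC and length offsets (-0.42, adjusted p = 0.0549). Reads of Aire, which lies beside Dnmt3l on the chromosome, numbered 76 to 156 a library against 3979 to 7931 for Dnmt3l.

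Dnmt1, Uhrf1, Dnmt3a, Dnmt3b, Tet1 and Tet2 were not called between the populations under either vector. With NRF1 OE the log2 differences of BV+ from BV- cells were -0.10 for Dnmt1 (95% interval -0.31 to 0.12), -0.20 for Uhrf1 (-0.41 to 0.01), 0.01 for Dnmt3a (-0.29 to 0.31), -0.21 for Dnmt3b (-0.50 to 0.09), -0.09 for Tet1 (-0.72 to 0.54) and 0.15 for Tet2 (-0.45 to 0.76). Uhrf1, which is high in dividing cells, was at 644 and 694 CPM in BV+ against 694, 797 and 812 CPM in BV- cells with NRF1 OE. The sum of 10 S phase and proliferation genes moved in the same direction, at 5256 to 5282 CPM against 5977 to 6334 CPM, and its part in the Uhrf1 and Dnmt3l levels was not tested. With GC and length offsets Dnmt1 (-0.25, adjusted p = 0.0286), Uhrf1 (-0.20, adjusted p = 0.0335) and Tet1 (-0.46, adjusted p = 0.0347) were also called lower in BV+ cells with NRF1 OE.

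**Figure D3:**
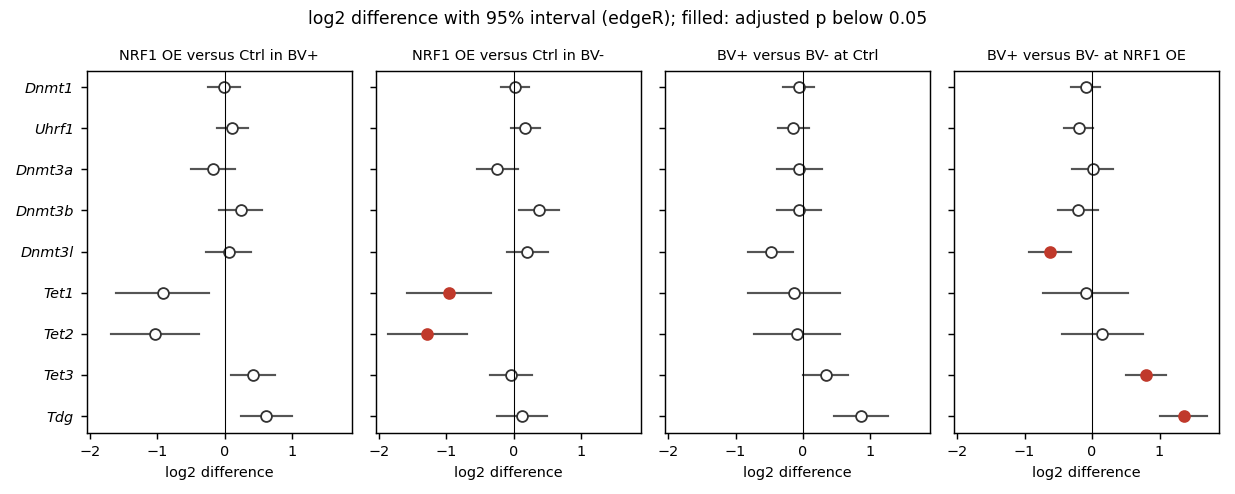
The log2 difference of each member with its 95% interval (x axis) in the 4 comparisons between pairs of groups (panels), edgeR fit of all 9 libraries; filled points have an adjusted p below 0.05. The filled points are Tet1 (-0.96) and Tet2 (-1.28) for NRF1 OE in BV- cells and Tdg (1.36), Tet3 (0.80) and Dnmt3l (-0.62) for BV+ against BV- cells with NRF1 OE.

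Averaged over both vectors, 3 of the 9 were called between the populations, where 12.3% of all genes were (8.96% higher and 3.32% lower). Tdg (1.11, SE 0.12, adjusted p = 0.000111) and Tet3 (0.57, SE 0.10, adjusted p = 0.00377) were higher in BV+ cells and Dnmt3l (-0.55, SE 0.10, adjusted p = 0.00458) lower, all by edgeR. These 3 were also the members whose 4 BV+ libraries did not overlap the 5 BV- libraries, which held for 11.5% of all genes. The Tet3 and Dnmt3l calls held in each of 20 alternatives, and the Tdg call in 19. Neuroectoderm markers summed to 65.5 to 165 CPM in BV+ and 29.8 to 49.4 CPM in BV- libraries, a difference in the direction of Tet3 and Tdg whose part was not tested. Of 4 tested, 2 were called higher in BV+ cells, as were 3 of 4 tested mesoderm markers. In the other direction, 1 of 6 endoderm and 1 of 6 formative and primed epiblast markers were called lower.

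The alternative that ended the Tdg call was the counting of its copy. Tdg, the glycosylase that follows TET oxidation, was counted at 22.5 and 24.2 CPM in BV+ Ctrl, 42.1 and 29.5 CPM in BV+ NRF1 OE, 12.4 and 13.4 CPM in BV- Ctrl, and 12.5, 14.4 and 15.0 CPM in BV- NRF1 OE libraries. On these counts it was higher in BV+ cells by 1.36 with NRF1 OE (SE 0.16, 95% interval 1.01 to 1.71, adjusted p = 0.00019, edgeR) and by 0.86 at Ctrl (SE 0.18, 95% interval 0.46 to 1.26, adjusted p = 0.05, just outside the threshold). Each BV+ library was above each BV- library.

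Tdg-ps2, a processed pseudogene (an inserted copy of a spliced message), is 99.2% identical to the Tdg transcript over 1194 bases, with 9 mismatches and 0 gaps. The Tdg transcript has 3502 bases, so reads from outside that shared stretch have no match in Tdg-ps2. The copy received 716 to 1149 counts a library. It held more counts than Tdg in 8 of the 9 libraries; in BV+ NRF1 OE replicate 1 Tdg had 818 and the copy 716. In GENCODE M21 (GRCm38), Tdg spans chr10:82629828-82650799 on the plus strand and Tdg-ps2 chr10:42054113-42055306 on the minus strand. The place where the copies differ most closely together, bases 1271 to 1330 of the Tdg transcript, lies inside its coding part. It is shown with its 4 mismatches in capitals to make plain how little separates reads from the shared stretch.
Tdg: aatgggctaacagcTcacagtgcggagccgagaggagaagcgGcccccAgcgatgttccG
Tdg-ps2: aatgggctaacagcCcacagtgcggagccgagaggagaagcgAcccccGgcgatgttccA

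Tdg-ps2 was at 50.1 and 53.4 CPM in BV+ Ctrl, 36.9 and 47.7 CPM in BV+ NRF1 OE, 54.8 and 61.3 CPM in BV- Ctrl, and 62.4, 66.5 and 68.1 CPM in BV- NRF1 OE libraries. Where Tdg was high the copy was low, and with NRF1 OE Tdg-ps2 was lower in BV+ than in BV- cells by 0.63 on the log2 scale (adjusted p = 0.00774, edgeR). Counted as 1 gene, a choice made after seeing these values, the pair was at 67.2 to 83.1 CPM in all 9 libraries, and its BV+ and BV- ranges overlapped. The log2 difference of BV+ from BV- cells was then -0.03 with NRF1 OE (95% interval -0.26 to 0.20, adjusted p = 0.896) and 0.08 at Ctrl (95% interval -0.17 to 0.34, adjusted p = 0.994), and that of NRF1 OE from Ctrl 0.06 in BV+ (adjusted p = 0.752) and 0.17 in BV- cells (adjusted p = 0.259). The Tdg differences above are those of reads assigned to the Tdg row. Which of these reads came from which copy was not tested. Because the copy mostly held more counts, the joint count would also shrink a difference of Tdg alone, so it cannot decide this.

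**Figure D4:**
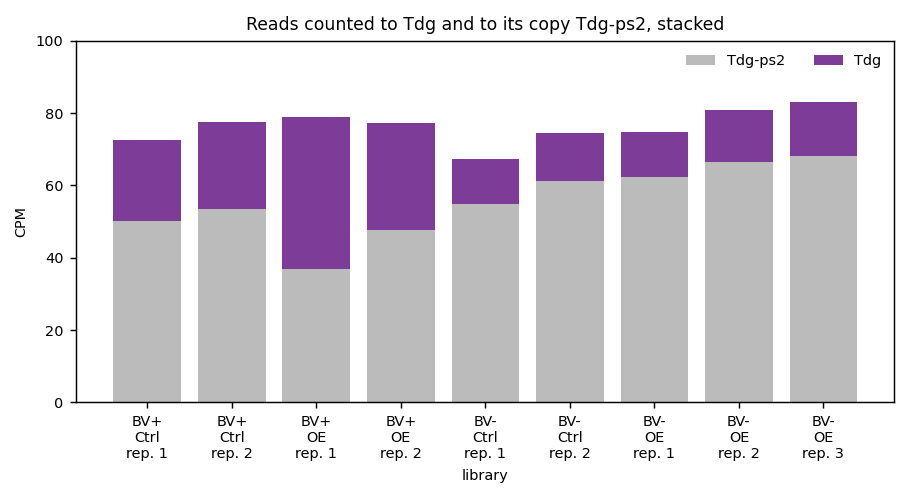
Reads counted to Tdg (upper part of each bar) and to Tdg-ps2 (lower part) in CPM (y axis) in each library (x axis). The Tdg part runs from 12.4 to 42.1 CPM while the whole bar stays between 67.2 and 83.1 CPM.

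Near-identical copies mattered less for the other members. At 90% identity over at least 200 bases, Uhrf1 has Gm5648 with 8 to 21 counts a library and Dnmt3b has Dnmt3c with 0 to 5 counts, beside at least 9487 and 3891 counts for the members themselves. Tdg has 4 further matches, Tdg-ps, Gm5597, Gm18293 and the overlapping gene Glt8d2, with 0 to 11 counts. No other of the 9 had such a copy.

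The make-up of each family was compared as shares of summed FPKM, which is per length. Of the 4 DNMT genes, Dnmt3l took 36.6% to 41.9% in the 4 BV+ libraries (39.5% ± 2.23, SD, n = 4) and 45.9% to 50.5% in the 5 BV- libraries (47.2% ± 1.95, SD, n = 5), without overlap (exact permutation test, two-sided, p = 0.00794, adjusted p = 0.0278 over 7 shares). Dnmt1 took 28.5% to 30.9% in BV+ (29.8% ± 1.05, SD, n = 4) and 22.3% to 27.1% in BV- libraries (25.5% ± 2.14, SD, n = 5), again without overlap and with the same exact p. That p is the smallest that 126 permutations allow. Within NRF1 OE the Dnmt3l share of BV+ differed from that of BV- by -8.29 points and within Ctrl by -7.10 points. Shares of 1 sum are tied to each other: without Dnmt3l in the sum, no share differed between the populations at an adjusted p below 0.05.

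**Figure D5:**
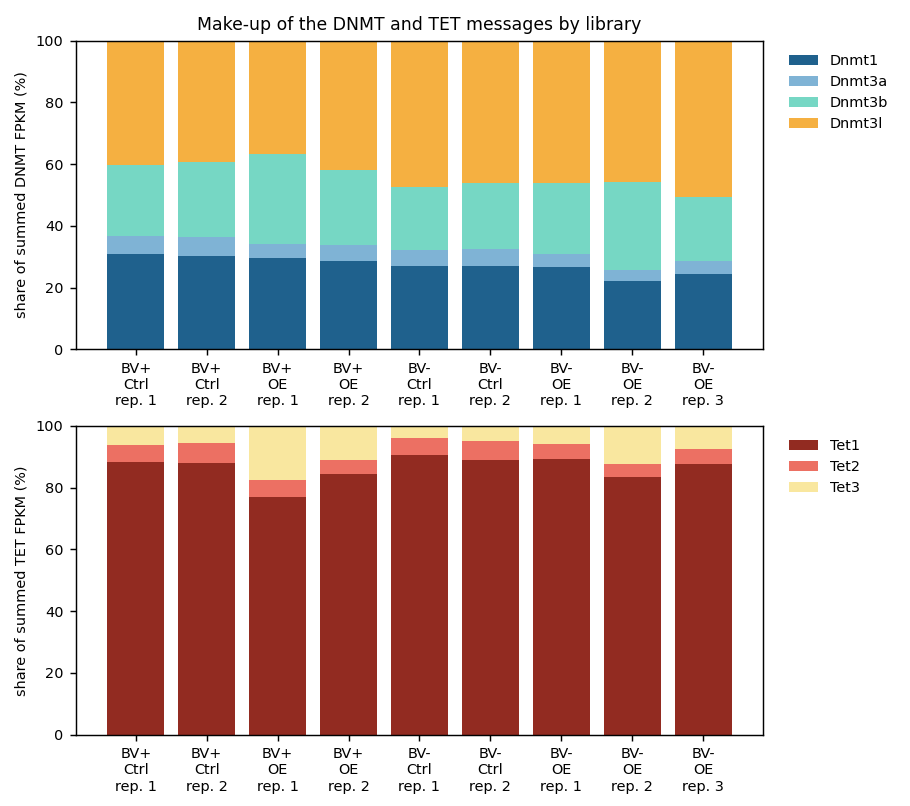
Share of each gene in the summed FPKM (y axis, percent) of the DNMT genes (top) and the TET genes (bottom) in each library (x axis). Dnmt3l takes 36.6% to 41.9% in BV+ and 45.9% to 50.5% in BV- libraries, and Tet1 takes at least 77.0% of the TET sum in all 9.

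Between NRF1 OE and Ctrl none of the 7 shares passed after adjustment in the exact permutation test, with 3 at an unadjusted p below 0.05. Of the TET sum, Tet2 took 4.76% ± 0.470 (SD, n = 5) with NRF1 OE and 5.93% ± 0.288 (SD, n = 4) in Ctrl (exact permutation p = 0.0159, adjusted p = 0.111). Tet3 took 10.9% ± 4.50 (SD, n = 5) and 5.08% ± 0.991 (SD, n = 4) (exact permutation p = 0.0476, adjusted p = 0.111), and BV+ NRF1 OE replicate 1, at 17.5%, was the highest. The summed TET FPKM divided by the summed DNMT FPKM was 0.0505 to 0.127 in the 5 NRF1 OE libraries and 0.165 to 0.215 in the 4 Ctrl libraries, without overlap. Tet1 took at least 77.0% of the TET sum in every library, so this ratio mostly restates the Tet1 values. Of all genes, 29.7% separated the same libraries in CPM.

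Some members moved together in pairs. For Tdg the values are those of its own row. Counted with Tdg-ps2, it stayed between 67.2 and 83.1 CPM in all 9 libraries. As a description over the 9 libraries, which share depth, group and GC differences, Pearson's r of log2 CPM was 0.97 between Tet1 and Tet2, 0.95 between Tet3 and Tdg, -0.93 between Dnmt3b and Tet2 and -0.89 between Dnmt3b and Tet1. Over the same libraries the genes with the most similar pattern among 14277 were Tmem184c, Ccp110 and Sec24a for Tet2 (r 0.99 each), Sos1, Ndc1 and Ryr3 for Tet1 (r 0.99 each), and Atp1b2, Pcdhgc3 and Bcl9 for Tdg (r 0.99 each).

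Other genes of the methylation pathway were taken from 7 lists of 60 genes in all, 59 of them tested. With NRF1 OE, 7 rose and 3 fell in BV+ cells (16.9% of the 59, against 8.02% of all genes) and 10 rose and 6 fell in BV- cells (27.1%, against 17.2% of all genes). Many of these calls depended on the setting. Of the 14 regulators of DNMT and TET enzymes, 5 rose and 1 fell in BV+ cells. Gadd45g (1.14, adjusted p = 0.0355, edgeR), Cxxc4 (0.91, adjusted p = 0.0224) and Gadd45b (0.85, adjusted p = 0.0343) rose, the GADD45 proteins being linked to active demethylation. Zfp57 (-0.73, adjusted p = 0.0296), which protects methylation at imprinted loci, fell. With GC and length offsets Cxxc4 (1.28, adjusted p = 0.00712) and Zfp57 (-0.62, adjusted p = 0.0089) kept the call, and Gadd45g (0.65, adjusted p = 0.0841) and Gadd45b (0.43, adjusted p = 0.14) lost it. Without BV+ NRF1 OE replicate 1 none of these 4 was called, with Gadd45b at 0.56 (adjusted p = 0.323) and Cxxc4 at 0.75 (adjusted p = 0.256).

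In BV- cells 4 of the 14 regulators rose and 3 fell with NRF1 OE, where 17.2% of all genes were called. Dppa3, which encodes Stella, an inhibitor of UHRF1 and the gene of the CFP reporter, was at 162, 144 and 124 CPM against 79.1 and 81.1 CPM in Ctrl and rose by 0.84 (adjusted p = 0.0317, edgeR). Gadd45b (0.66, adjusted p = 0.0437) and Tfap2c (0.43, adjusted p = 0.045) also rose, and Zfp445 (-0.96, adjusted p = 0.0325), Zfp57 (-0.59, adjusted p = 0.0338) and Ogt (-0.55, adjusted p = 0.0419) fell. Of the 7 maintenance partners 0 rose and 1 fell, Hells (-0.75, adjusted p = 0.0374), a chromatin remodeller needed for DNA methylation. Of 12 base excision repair genes, Neil1 (0.66, adjusted p = 0.0417), Nthl1 (0.52, adjusted p = 0.0351) and Ogg1 (0.42, adjusted p = 0.042) rose and none fell. Of 8 methyl-CpG binding proteins, Mbd3 rose (0.45, adjusted p = 0.0354) and Zbtb38 fell (-0.79, adjusted p = 0.0383). In lists as short as those of the maintenance, repair and binding genes, such counts are close to the 17.2% of all genes. With GC and length offsets Dppa3 (0.94, adjusted p = 0.00438) and Zfp57 (-0.43, adjusted p = 0.0399) kept the call. The call was lost for the other genes named here, among them Zfp445 (-0.50, adjusted p = 0.0521), Hells (-0.15, adjusted p = 0.277), Neil1 (0.27, adjusted p = 0.413), Nthl1 (0.17, adjusted p = 0.358) and Ogg1 (0.05, adjusted p = 0.785). Dppa3 was called in 16 of 22 alternatives, Zfp57 in 14, Hells, Nthl1, Zfp445, Zbtb38 and Mbd3 in 13 each, Gadd45b in 12, Neil1 and Ogt in 11, Ogg1 in 10 and Tfap2c in 8.

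Some genes of small-molecule supply were also called. Of 7 genes of 2-oxoglutarate supply, 2 were called in BV+ and 2 in BV- cells. Of 10 genes of the methyl donor cycle and one-carbon supply, 2 were called in BV+ and 1 in BV- cells. Of all genes, 8.02% were called in BV+ and 17.2% in BV- cells. Idh2, which makes the 2-oxoglutarate that TET enzymes consume, rose in both populations (0.58, adjusted p = 0.033 in BV+ and 0.57, adjusted p = 0.0317 in BV- cells, edgeR). In the methyl donor cycle, Mat2a fell in BV+ cells (-0.39, adjusted p = 0.0458) and Shmt2 rose in BV- cells (0.38, adjusted p = 0.0467). With GC and length offsets Mbd3 and Shmt2 in BV- cells turned to -0.03 and -0.04, and the calls of Idh2 (0.23, adjusted p = 0.0705 in BV+ and 0.18, adjusted p = 0.142 in BV-) and Mat2a (-0.18, adjusted p = 0.222) were lost. Shmt2 was called in 7 of 22 alternatives and Mat2a in 11. Ahcy, which clears S-adenosylhomocysteine, rose in BV+ cells as counted (0.87, adjusted p = 0.0418), but its near-identical copy Ahcyl held 3513 to 7074 counts against its own 200 to 1076. Counted together, after seeing this, the Ahcy pair was at 0.17 (adjusted p = 0.324) in BV+ and rose by 0.56 (adjusted p = 0.0317) in BV- cells.

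Between the populations, 1 of the 59 was called at Ctrl (1.69%, against 1.12% of all genes) and 12 with NRF1 OE, 7 higher and 5 lower in BV+ cells (20.3%, against 13.8% of all genes). The 1 at Ctrl was Cxxc4, at 9.57 and 10.8 CPM in BV+ against 2.27 and 2.72 CPM in BV- libraries (log2 difference 2.02, adjusted p = 0.00124, edgeR). With NRF1 OE it was at 21.1 and 17.0 CPM against 2.53, 3.17 and 3.38 CPM, a log2 difference of 2.66 (adjusted p = 5.09e-06). No BV- value came near the BV+ values. Zbtb4 (1.70, adjusted p = 0.00553), Gadd45g (1.25, adjusted p = 0.00661), D2hgdh (0.98, adjusted p = 0.0133) and Gadd45b (0.65, adjusted p = 0.0342) were also higher in BV+ cells with NRF1 OE, while Dppa3 (-0.65, adjusted p = 0.00536), Ung (-0.50, adjusted p = 0.0122), Tfap2c (-0.43, adjusted p = 0.0461), Trim28 (-0.42, adjusted p = 0.0191) and Shmt1 (-0.36, adjusted p = 0.0269) were lower. Tfap2c was called in 9 of 22 alternatives, Shmt1 in 11, Gadd45b in 14 and Trim28 in 16, the others named in at least 19, and without BV+ NRF1 OE replicate 1 Gadd45b was at 0.36 (adjusted p = 0.326). Ahcy was higher as counted (1.40, adjusted p = 0.000854) and lower when counted with Ahcyl (-0.51, adjusted p = 0.0101). None of the 59 passed the interaction test in edgeR.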

How the data were processed

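Poly(A) RNA-seq libraries of sorted embryoid body cells were analysed. According to the submitters' processing notes and the study's methods, the authors trimmed the reads (Cutadapt), aligned them by HISAT2 2.0.1 to the GRCm39 build, and obtained gene counts from HTSeq 0.6.1. Whether the counting used strand, and how it treated reads with several matches, is not given in the sources used here. The deposited raw counts and the deposited FPKM values, which the authors calculated from those counts, were both used, and samples were grouped by their titles.

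Counts of all 9 libraries were fitted with edgeR 4.0.16 (R 4.3.3) by quasi-likelihood with 1 term a group, TMM factors (0.969 to 1.03) and filterByExpr. Benjamini-Hochberg adjustment was over 16903 genes and the threshold 0.05. CPM used TMM library sizes. The log2 CPM of the correlations and GC trends used a prior count of 2, and log2 differences the edgeR default. DESeq2 1.42.0, other scalings and filters, the 2 compared groups alone, a replicate block, GC and length offsets (GENCODE M21 transcripts, found for 98.6% of tested genes), thinned counts and each library left out were alternatives. Counting Tdg with Tdg-ps2 was a further alternative. It enters the tallies of every gene, though it changes the counts of Tdg only. Shares were compared by two-sided exact permutation over libraries. Copies were found by blastn against GENCODE M21 transcripts. The fitting steps were tested on simulated data, and figures were drawn with matplotlib 3.10.9 (Python 3.11.15). No replicate pair had identical values, and each pair differed by more than counting noise (chi-square a gene of 2.99 to 34.7).

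All 9 members are described. Of each pathway list, up to 3 genes called in each direction with a mean of at least 1 CPM are named, those with the largest difference. A result that this rule would name is not reported here. The members and lists were chosen with earlier results of these data known. Single values carry counting noise and the spread between libraries, and the totals a library are given above.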

Additional observations from a re-analysis of the deposited data

How the results depend on the processing

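The members' log2 differences were followed in the comparisons between pairs of groups and in averaged comparisons where a member was called. Over the alternatives, 803 kept their direction and side of the threshold, 48 newly passed it, 41 lost it and 40 changed sign. For NRF1 OE in BV+ cells the 0 members called became 3 by the study's threshold, 1 with DESeq2 size factors, 1 with upper-quartile factors, 3 without a filter, 1 with a mean of at least 10 counts, 2 with DESeq2, 4 with DESeq2 and 4 with edgeR on the 2 groups alone, 3 with GC and length offsets, and 0 to 4 with a library left out, the 4 being without BV- NRF1 OE replicate 2. In BV- cells the 2 called became 0 with edgeR on the 2 groups, 1 with GC and length offsets and 0 to 4 with a library left out. Between populations at Ctrl the 0 called became 1 by the study's threshold, 1 with library size alone, 1 with upper-quartile factors, 2 without a filter, 1 with DESeq2, 2 with DESeq2 and 3 with edgeR on the 2 groups, 1 with GC and length offsets and 0 to 1 with a library left out. With NRF1 OE the 3 called became 6 with GC and length offsets, 2 with edgeR on the 2 groups and 2 to 4 with a library left out. Averaged, the 4 called for NRF1 OE became 2 by the study's threshold and 2 to 5 with a library left out, and the 3 between populations became 1 by the study's threshold and 6 with GC and length offsets. The 2 shares past the threshold between populations became 0 from raw counts, 0 without Dnmt3l in the sum and 0 to 0 with a library left out, where fewer permutations exist. The 0 for NRF1 OE became 3 without Dnmt3l in the sum.

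Sign changes included differences called above, of Tdg, Mbd3 and Shmt2. With GC and length offsets NRF1 OE gave -0.20 for Dnmt3l and -0.10 for Uhrf1 in BV+ cells, and -0.10 for Dnmt1, -0.11 for Dnmt3l, -0.069 for Uhrf1, 0.0016 for Tet3, -0.028 for Mbd3 and -0.036 for Shmt2 in BV- cells. The same offsets gave -0.23 for Dnmt3a and -0.16 for Tet2 between populations with NRF1 OE. Dnmt1 was 0.026 in BV+ and -0.00079 in BV- cells with a mean of at least 10 counts, and -0.022 in BV- cells with library size alone. Dnmt3a was -0.025 between populations with NRF1 OE and upper-quartile factors. Tdg with Tdg-ps2 was -0.027 between populations with NRF1 OE, and the Dnmt3b share differed by -1.60 points without Dnmt3l in the sum. With a library left out, NRF1 OE gave -0.068 to 0.044 for Dnmt1 and -0.13 to 0.23 for Dnmt3l in BV+ cells, and -0.057 to 0.041 for Dnmt1 and -0.19 to 0.047 for Tet3 in BV- cells. Between populations it gave -0.32 to 0.043 for Tet1 and -0.24 to 0.034 for Tet2 at Ctrl, and -0.17 to 0.17 for Dnmt3a, -0.47 to 0.20 for Tet1 and -0.10 to 0.36 for Tet2 with NRF1 OE. The Dnmt3l share for NRF1 OE ran from -0.594 to 2.89 points. The causes were not tested.

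Same-numbered libraries did not deviate together (correlations of -0.243 to 0.246 over 6 pairs of groups). With 1 contrast of replicates a group, over genes that share the GC trend, this cannot show whether libraries were paired. The labels name no pairing, so the main fit used none. A replicate block left 3 genes called for NRF1 OE in BV+ cells (1355 without it), 0 in BV- cells (2910), 121 between populations at Ctrl (190) and 1064 with NRF1 OE (2325). Members called under the block were 0, 0, 0 and 2, and 2 for NRF1 OE averaged. The block with GC and length offsets gave 1 in BV+, 0 in BV-, 2 between populations with NRF1 OE and 2 for NRF1 OE averaged. Under the block Dnmt1 was -0.052 in BV- cells and Tet1 0.14 between populations with NRF1 OE. The block with offsets gave -0.21 for Dnmt3l and -0.10 for Uhrf1 in BV+ cells, -0.13 for Dnmt1, -0.23 for Dnmt3l, -0.11 for Uhrf1, -0.020 for Mbd3 and -0.087 for Shmt2 in BV- cells, and -0.16 for Dnmt3a and -0.012 for Tet2 between populations with NRF1 OE. The members with the fewest counts in a library were Tet2, with 141, and Tdg, with 196.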
